A study of Mus musculus with 9 samples.

Results

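The genes described here are 10 genes of the photoreceptor terminal and its ribbon synapse: Slc17a7, Stx3, Cplx3, Cplx4, Cacna1f, Cabp4, Cacna2d4, Ctbp2, Bsn and Elfn1. They were chosen by symbol for their role at the terminal, with earlier results of these data known, and are 10 of the 53280 genes in the count table. RNA was sequenced from neural retina of mice at postnatal day 4, in 5 pools from Opn4 knockout pups and 4 pools from wildtype pups. Each pool held 4 retinas from 2 animals of the same genotype, so a pool is a biological replicate but not a single animal. Knockouts and wildtypes were littermates from crosses of heterozygous parents, were kept under lighting of about 300 lux and were sampled between ZT 6 and 7, that is 6 to 7 hours after lights on. The knockout carries the Opn4 loss in every cell of the animal, and the labels give no sex, litter or batch. Opn4 encodes melanopsin, the photopigment of intrinsically photosensitive ganglion cells, which work before rods and cones do.

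A photoreceptor releases glutamate continuously and lowers that release in light. Its terminal holds a ribbon, a protein sheet that tethers vesicles next to L-type calcium channels, and uses variants of the release proteins that differ from those of conventional synapses. In the mouse these terminals form after birth, while rods are still being born. The genes fall into 4 groups by role: loading and fusion of vesicles (Slc17a7, Stx3, Cplx3, Cplx4), the calcium channel and its partners (Cacna1f, Cabp4, Cacna2d4), the ribbon and its anchor (Ctbp2, Bsn), and adhesion to the bipolar cell (Elfn1). Several are not limited to photoreceptors: bipolar cells also use Ctbp2, Cplx3 and Cplx4, and Bsn is made at many synapses.

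The sequences before the start sites are shown for the 3 members that rose in the knockout and have an entry in RefSeq's promoter table (build GRCm38.p6), and for the Ctbp2 start that yields RIBEYE, the ribbon protein. Each is the 250 bases before the annotated start, 5′ to 3′ on the strand of the gene. Capitals mark a match to TAATCC, the core bound by photoreceptor homeodomain factors, or to its reverse complement GGATTA.
Slc17a7 (chr7:45163671-45163920, plus strand): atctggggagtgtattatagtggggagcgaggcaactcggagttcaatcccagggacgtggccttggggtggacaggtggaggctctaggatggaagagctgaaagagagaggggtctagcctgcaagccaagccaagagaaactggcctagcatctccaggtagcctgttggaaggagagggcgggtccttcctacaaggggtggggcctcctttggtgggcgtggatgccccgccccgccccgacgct
Stx3 (chr19:11819404-11819653, minus strand): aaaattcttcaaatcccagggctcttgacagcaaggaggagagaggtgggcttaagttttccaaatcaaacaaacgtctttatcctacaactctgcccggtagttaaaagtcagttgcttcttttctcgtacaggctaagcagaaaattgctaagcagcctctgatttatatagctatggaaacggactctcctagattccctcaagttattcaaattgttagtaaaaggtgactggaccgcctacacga
Elfn1 (chr5:139907616-139907865, plus strand): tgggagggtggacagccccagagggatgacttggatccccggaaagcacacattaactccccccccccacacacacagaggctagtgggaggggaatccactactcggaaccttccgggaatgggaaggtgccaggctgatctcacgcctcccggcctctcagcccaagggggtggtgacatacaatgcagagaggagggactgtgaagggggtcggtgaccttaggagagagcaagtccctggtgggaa
Ctbp2 (chr7:133015248-133015497, minus strand): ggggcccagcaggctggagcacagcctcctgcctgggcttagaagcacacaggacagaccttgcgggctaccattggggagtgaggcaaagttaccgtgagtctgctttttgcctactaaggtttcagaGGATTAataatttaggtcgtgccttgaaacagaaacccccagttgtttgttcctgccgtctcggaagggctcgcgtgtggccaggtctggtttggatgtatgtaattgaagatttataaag
The Ctbp2 start shown belongs to the annotated transcript with the longest product of the gene, 988 amino acids. Its single match lies 121 bases before the start. Searched over the whole window of 300 bases, from 250 before to 50 after the start and on both strands, TAATCC was found in 2 of the 8 windows that 7 members have, those of Stx3 and this Ctbp2 start. The Stx3 match lies after the start and so outside the bases printed. The second motif searched, TGCTGA (reverse complement TCAGCA), the core of the site for large Maf factors such as NRL, was found in 1 window, that of Cplx3. Of all 32851 windows in the table, 7.06% held TAATCC and 19.5% held TGCTGA. No member's window held both motifs. Cplx4, Cabp4 and Cacna2d4 have no entry.

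The 9 libraries held 65.5 to 86.1 M counts each. Opn4 was counted at 1.07, 1.82, 1.15, 1.42 and 1.35 CPM (counts scaled to a common, TMM-adjusted library size) in knockout pools 1 to 5 and at 11.8, 11.4, 12 and 11.6 CPM in wildtype pools 1 to 4. Every knockout pool was thus far below every wildtype pool, with a log2 fold change of -3.10 (SE 0.14, edgeR adjusted p = 1.28e-07). Across the 21150 genes tested, 284 were higher in the knockout (1.34%) and 476 lower (2.25%), 3.59% in either direction, at an adjusted p under 0.05 in edgeR's quasi-likelihood test. These shares are the background for every count of genes below. Markers of several retinal cell types moved with genotype too, those of rods, which are photoreceptors themselves, among them. Of 15 rod markers, 11 were higher in the knockout, with a median log2 fold change of 0.50 and a summed level of 4590 to 6210 CPM against 3960 to 4350 in the wildtype; the highest was Gnb1. Of 19 progenitor and cell cycle markers, 13 were lower, with summed levels of 2130 to 2410 CPM against 2950 to 3050; the highest was Pax6. Of 11 photoreceptor precursor markers, 4 were higher (3750 to 4570 against 3550 to 3780 CPM), and Crx was the highest. Of 14 bipolar markers, 6 were higher (1140 to 1210 against 1080 to 1130 CPM), and Otx2 was the highest. Of the 11 cone markers tested, none passed in either direction (537 to 648 against 570 to 648 CPM). No rod or progenitor marker was at 0 in any pool; the bipolar marker Grm6 was at 0 in wildtype pools 1 and 4, and 1 cone marker was at 0 in every wildtype pool and in knockout pools 4 and 5. In bulk tissue, fewer cells of a type and less RNA per cell cannot be told apart. The part of these shifts in the results below was not tested.

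All 10 genes had a positive log2 fold change, knockout minus wildtype, with a median of 0.33. Of all tested genes, 50.4% were positive and the median was 0.0012. Slc17a7, Stx3, Cplx4 and Elfn1 rose at an adjusted p under 0.05, and none fell. The knockout and wildtype CPM ranges did not overlap for the same 4 genes, against 3.92% of tested genes higher in the knockout without overlap. At an unadjusted p under 0.05, 8 of 10 passed, against 16.5% of tested genes in either direction. The changes were modest: the 4 that rose were 1.26 to 1.56 times the wildtype mean.

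Slc17a7 encodes the vesicular glutamate transporter VGLUT1, which fills vesicles in photoreceptors and bipolar cells. It lies on chromosome 7 (45163949 to 45176142, GRCm38). It measured 169, 154, 131, 140 and 109 CPM in knockout pools 1 to 5 and 96.7, 101, 102 and 103 CPM in wildtype pools 1 to 4. The lowest knockout pool, the fifth, lay just above the highest wildtype pool, and knockout pools spread far more than wildtype pools did. Means were 140 ± 23 (SD, n = 5) against 101 ± 2.9 CPM (SD, n = 4), a log2 fold change of 0.48 (SE 0.10, edgeR adjusted p = 0.0143). Its direct paralog in ganglion cells, Slc17a6 (VGLUT2), is described with the counterparts below.

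Stx3 encodes syntaxin 3, the plasma membrane SNARE of ribbon synapses, at which vesicles fuse. It lies on chromosome 19 (11775118 to 11819403). It measured 278, 266, 226, 229 and 206 CPM in the knockout pools and 181, 201, 178 and 193 CPM in the wildtype pools. The groups did not overlap, but knockout pool 5 and wildtype pool 2 were close. Means were 241 ± 30 (SD, n = 5) and 188 ± 11 CPM (SD, n = 4), with a log2 fold change of 0.35 (SE 0.08, edgeR adjusted p = 0.026).

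Cplx3 and Cplx4 encode the complexins of ribbon synapses, which clamp and promote vesicle fusion. Cplx4, on chromosome 18 (65955722 to 65970237), measured 24.2, 27.0, 20.1, 16.4 and 17 CPM in the knockout pools and 13.1, 13.3, 13.4 and 14.1 CPM in the wildtype pools. The wildtype pools were close to each other, and every knockout pool was above them. Means were 20.9 ± 4.6 (SD, n = 5) and 13.5 ± 0.42 CPM (SD, n = 4), the largest log2 fold change of the 10 genes, 0.64 (SE 0.13, edgeR adjusted p = 0.0152). Cplx3 measured 160, 167, 140, 137 and 145 CPM against 127, 135, 138 and 125. Knockout pool 4 was below wildtype pool 3, so the groups overlapped, and the difference did not pass (log2 fold change 0.19, SE 0.06, edgeR adjusted p = 0.127).

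**Figure D1:**
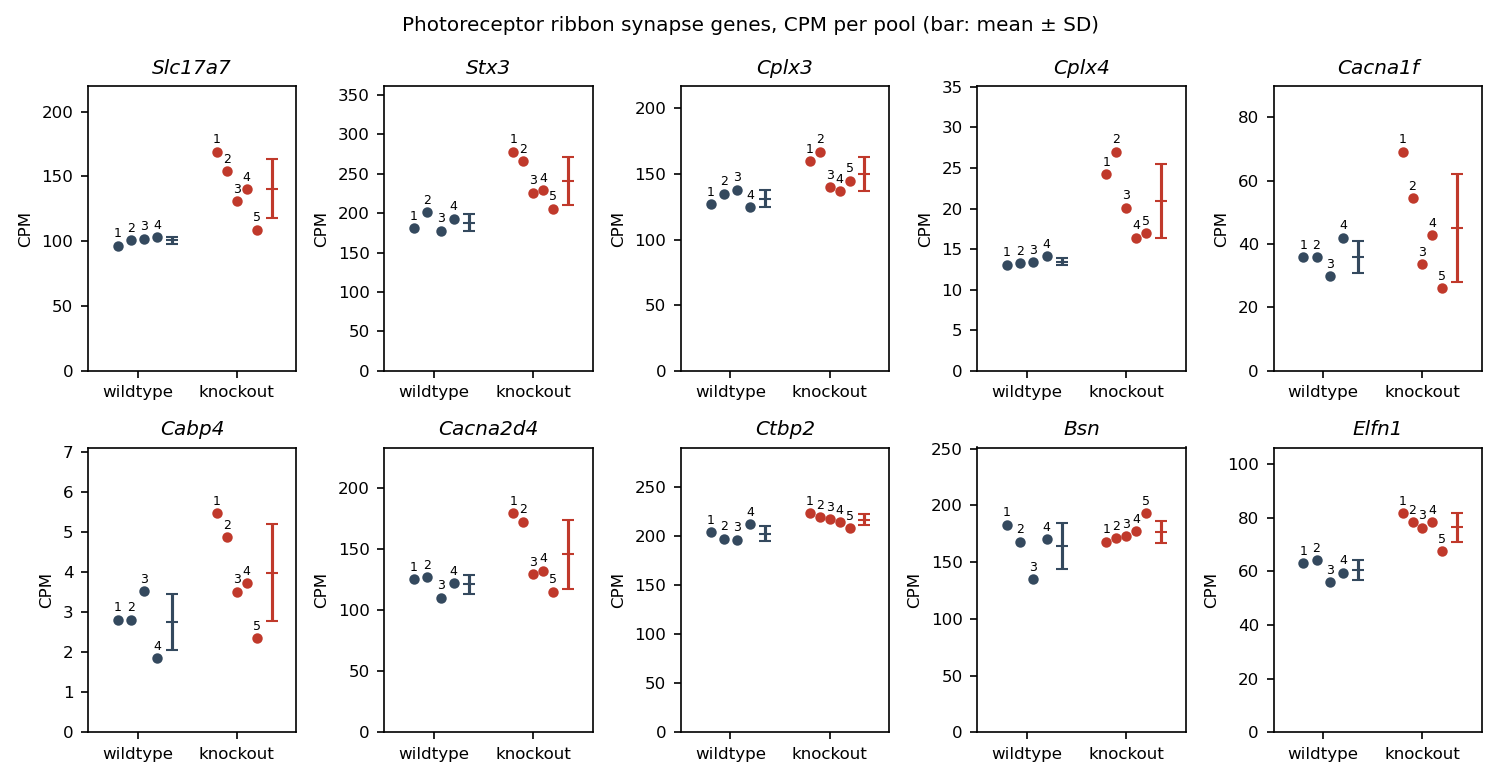
CPM of each of the 10 genes in every pool, one panel per gene with its own linear axis from 0; the number beside each point is the pool and the bar is the mean ± SD of 5 knockout or 4 wildtype pools. For Slc17a7, Stx3, Cplx4 and Elfn1 all knockout pools lie above all wildtype pools, with pools 1 and 2 at the top in most panels.

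Cacna1f and Cabp4 had the largest spread between knockout pools of the 10 genes, with an SD of 37.8% and 30.5% of the mean. Cacna1f encodes the pore-forming subunit of the L-type channel of photoreceptor terminals. It measured 69.1, 54.4, 33.7, 42.7 and 26.0 CPM in the knockout pools and 35.8, 35.8, 29.9 and 42.0 CPM in the wildtype pools. Knockout pool 5 was the lowest of all 9 and pool 1 the highest, and the 45.2 ± 17 (SD, n = 5) and 35.9 ± 4.9 CPM (SD, n = 4) means did not differ beyond that spread (log2 fold change 0.33, SE 0.22, edgeR adjusted p = 0.51). Without knockout pools 1 and 2 the value was -0.08 (edgeR adjusted p = 0.873), so the positive sign rests on those pools.

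Cabp4 encodes a calcium-binding protein that shifts the opening of this channel. It was the lowest member, with 150 to 419 counts a pool: 5.48, 4.88, 3.52, 3.73 and 2.36 CPM in the knockout and 2.82, 2.82, 3.54 and 1.86 CPM in the wildtype. The groups overlapped (log2 fold change 0.53, SE 0.24, edgeR adjusted p = 0.282). Cacna2d4 encodes the auxiliary subunit that carries the channel to the terminal. It measured 179, 172, 129, 132 and 115 CPM in the knockout and 125, 127, 110 and 122 CPM in the wildtype. Its first 2 knockout pools were above all others and the fifth lay within the wildtype range (log2 fold change 0.26, SE 0.11, edgeR adjusted p = 0.271). The annotated spans of both genes overlap a protein-coding gene on the opposite strand, Gpr152 and Lrtm2. No source used here says whether counting used strand. Only whole gene spans were compared, so how many reads of each pair could be mixed is not known.

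Ctbp2 encodes both a transcriptional co-repressor and, from the start shown above, RIBEYE, the main protein of the ribbon. Its levels were tight: 223, 219, 217, 214 and 208 CPM in the knockout and 204, 197, 196 and 212 CPM in the wildtype. Only wildtype pool 4 reached into the knockout range, and the log2 fold change of 0.10 (SE 0.04) did not pass (edgeR adjusted p = 0.238). Bsn encodes bassoon, which anchors the ribbon at the release site. It measured 168, 171, 173, 177 and 193 CPM in the knockout and 183, 168, 135 and 170 CPM in the wildtype, with wildtype pool 3 below the rest. The log2 fold change of 0.10 (SE 0.08) did not pass either (edgeR adjusted p = 0.548).

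Elfn1 encodes an adhesion protein of the rod terminal that binds the bipolar cell's receptor mGluR6 and is needed for that contact. It lies on chromosome 5 (139907943 to 139974722). It measured 81.7, 78.3, 76.3, 78.3 and 67.5 CPM in the knockout pools and 63.0, 64.1, 55.9 and 59.5 CPM in the wildtype pools. Every knockout pool was above every wildtype pool, and the spread was narrow in both groups. Means were 76.4 ± 5.3 (SD, n = 5) and 60.6 ± 3.7 CPM (SD, n = 4), a log2 fold change of 0.33 (SE 0.06, edgeR adjusted p = 0.00614).

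The 4 calls did not rest equally on the pools. Elfn1 passed whichever pool was left out, with an edgeR adjusted p of at most 0.0267. Slc17a7 missed without wildtype pool 1 (edgeR adjusted p = 0.0563), and Cplx4 missed without wildtype pool 1 or 2 (up to 0.0546 in edgeR). Stx3 missed without knockout pool 2 or wildtype pool 1, 3 or 4 (up to 0.0879 in edgeR). Leaving out wildtype pool 1 therefore left 1 member called.

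Knockout pools 1 and 2 stood above the other 3 for most of these genes. They were the highest 2 of the 9 pools for 8 of the 10 members, all but Bsn and Elfn1, against 9.02% of tested genes. Averaged over the members, log2 CPM relative to the mean of 9 pools was 0.38 and 0.32 in knockout pools 1 and 2, 0.05, 0.08 and -0.13 in pools 3 to 5, and -0.16, -0.14, -0.22 and -0.19 in the wildtype pools. The fifth knockout pool was thus close to the wildtype pools. The rod markers were also highest in pools 1 and 2 (6210 and 6100 CPM, against 4590 to 5110 in pools 3 to 5). Lens markers were highest there as well, at 23.2 and 19.7 CPM; knockout pools 3 to 5 held 11.6 to 12.5 CPM and the wildtype pools 10.1 to 11.6; 2 of the 9 tested rose, the most abundant was Crybb3, and none was at 0 in all pools. Red blood cell markers were lower in the knockout (5 of 6 tested, 73.8 to 99.3 against 110 to 336 CPM), with Hbb-bs the highest and Hbb-y at 0 in every pool. The part of these in the members' values was not tested. Without knockout pools 1 and 2, Slc17a7 (log2 fold change 0.32, edgeR adjusted p = 0.0476), Cplx4 (0.40, 0.031) and Elfn1 (0.28, 0.0435) passed and Stx3 did not (0.22, 0.0695), where 0.627% of 21374 genes were higher; the median of the members was 0.17.

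**Figure D2:**
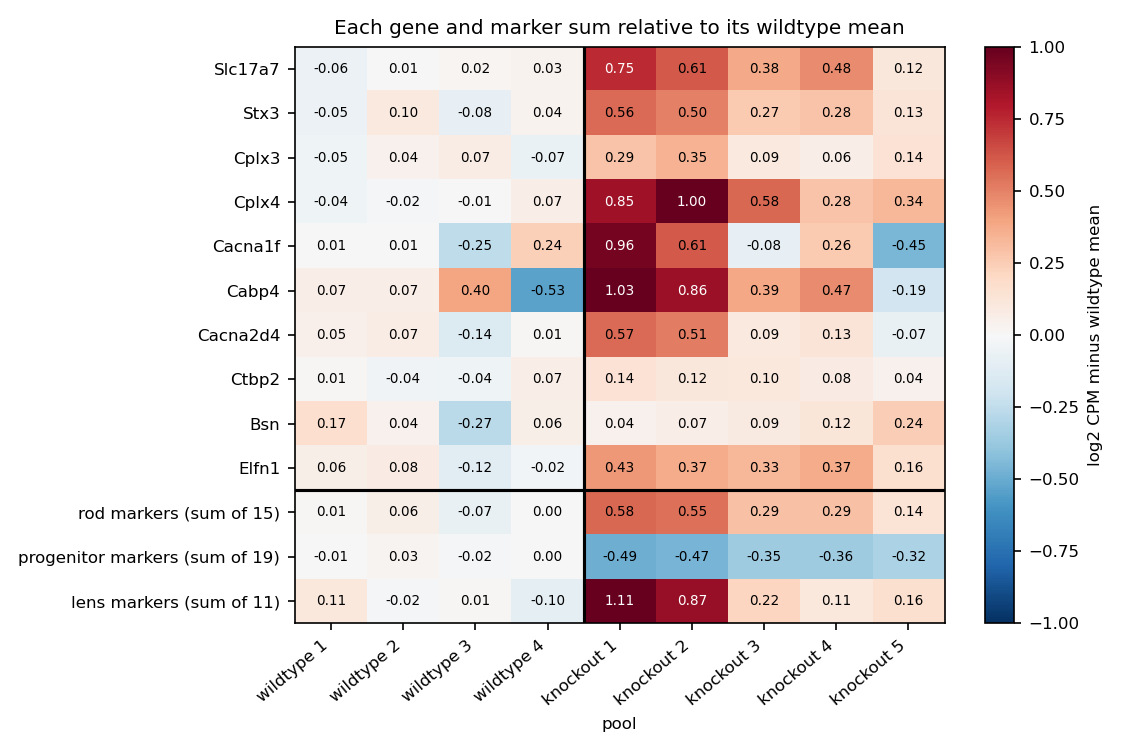
Log2 CPM of each gene in every pool minus its wildtype mean, with wildtype pools left and knockout pools right of the line; the 3 lower rows are sums of marker genes. Knockout pools 1 and 2 are reddest for most members and for the rod and lens sums, while the progenitor sum is below 0 in all 5 knockout pools.

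The deposited TPM, a transcript abundance that allows for length, were summed per gene to compare levels between genes. In the wildtype, mean TPM ran from Ctbp2 (163), Stx3 (161) and Cplx3 (138) through Slc17a7 (68.8), Cacna2d4 (57.0), Elfn1 (44.6) and Bsn (21.3) to Cplx4 (15.6), Cacna1f (13.7) and Cabp4 (1.77). Of neighbours in this order, Ctbp2 and Stx3, Stx3 and Cplx3, and Cplx4 and Cacna1f overlapped between wildtype pools; the other neighbours did not. By knockout means, Stx3 came before Ctbp2 and Cplx4 before Bsn. Cplx4 (17.3 to 29.9 TPM) spanned the knockout range of Bsn (20.8 to 23.1 TPM) and was below Bsn in pools 4 and 5. Ctbp2 made up 23.8% of the summed TPM of the 10 genes in the wildtype, Stx3 23.5% and Cplx3 20.1%, while Cacna1f made up 2.0% and Cabp4 0.259%. The sum of the 10 genes was 884, 892, 769, 793 and 732 TPM in the knockout pools and 673, 678, 682 and 703 TPM in the wildtype pools. No knockout pool reached down to the wildtype range.

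On the log2(TPM + 0.5) scale, 1 of the 10 genes passed in limma, Elfn1, with a difference of 0.45 (SE 0.06, limma adjusted p = 0.00661), where 0.621% of 15296 genes tested were higher in the knockout. Slc17a7 lay just outside the threshold (0.46, limma adjusted p = 0.05002), and Cplx4 (0.54, 0.0814) and Stx3 (0.32, 0.114) did not pass. The ranges of Slc17a7, Cplx4, Cacna2d4 and Elfn1 did not overlap in TPM, against 3.92% of genes. In the authors' deposited table of their own test, 113 of 17433 genes (0.648%) were higher in the knockout at a q-value under 0.05, and Elfn1 was the 1 member among them, at an effect of 0.44 on the log2 scale (q = 5.7e-06, rank 16 by p). The authors' deposited table gives q = 0.251 for Slc17a7, 0.324 for Stx3 and 0.151 for Cplx4. Elfn1 was the 1 member called in the counts, in the TPM and by the authors.

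**Figure D3:**
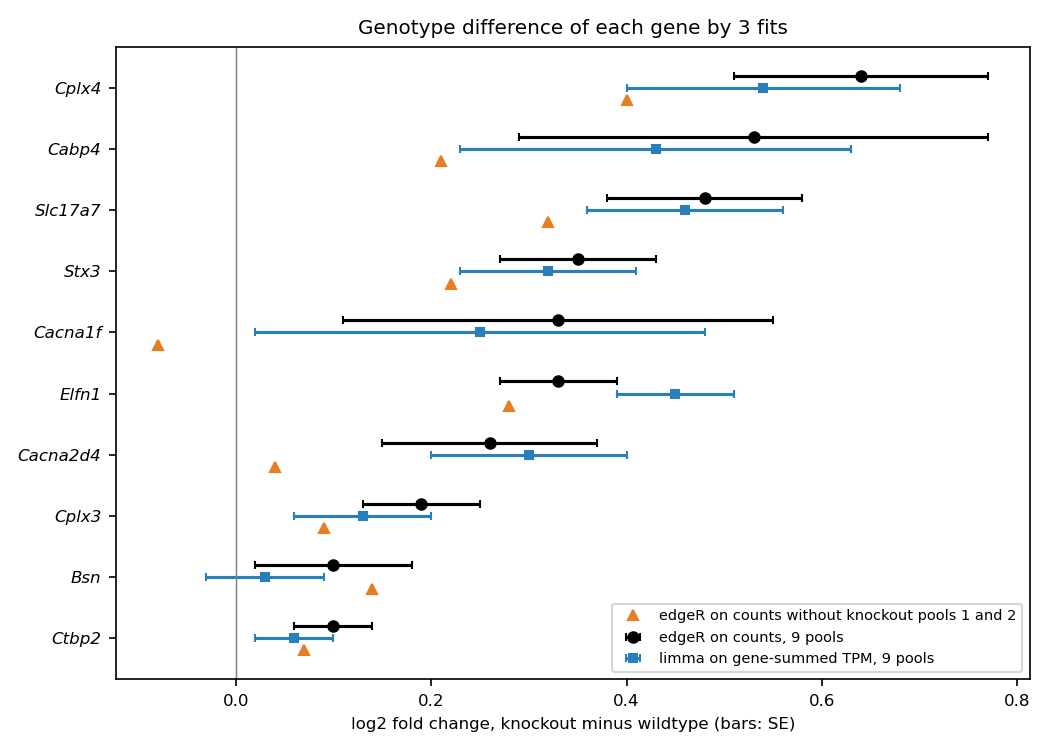
Log2 fold change of each gene, knockout minus wildtype, by edgeR on counts (circles with SE), by limma on gene-summed TPM (squares with SE) and by edgeR without knockout pools 1 and 2 (triangles, no bars). Every circle and square is above 0, and the Cacna1f triangle is below 0.

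The TPM table lists 67 transcripts of the 10 genes, 40 of them high enough to test. On the log2(TPM + 0.5) scale, 33 of the 40 had a positive difference, against 48.8% of all 48763 transcripts tested. At an unadjusted p under 0.05, 12 of the 40 passed in limma, against 9.21% of all. None passed after adjustment (smallest limma adjusted p = 0.118), where 0.176% of all passed. On that scale the differences of all tested transcripts of Slc17a7 (4), Stx3 (6), Cacna2d4 (5) and Elfn1 (2) were positive, although 1 of the Stx3 rows averaged less TPM in the knockout (3.29) than in the wildtype (4.12). The rows carry no transcript identifiers, so the RIBEYE and co-repressor forms of Ctbp2 cannot be separated. One of the 8 Ctbp2 rows tested averaged 21.1 TPM in the knockout and 16.1 TPM in the wildtype (log2 difference 0.38, limma adjusted p = 0.197), although the gene as a whole differed little.

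A further 28 genes of the photoreceptor terminal were examined beside the members. Rims2, Egflam, Lrit1 and Syp rose, 4 of 28, none fell, 25 were positive and the median log2 fold change was 0.13. Egflam encodes pikachurin, which bridges the terminal and the bipolar dendrite, and was 197 to 222 CPM in the knockout against 174 to 182 (log2 fold change 0.24, edgeR adjusted p = 0.0068). Rims2, a scaffold that tethers vesicles and channels, was 86.9 to 91.9 against 72.6 to 80.6 CPM (0.20, edgeR adjusted p = 0.0178). Syp, the vesicle protein synaptophysin, was 661 to 673 against 578 to 629 CPM (0.17, edgeR adjusted p = 0.028). Lrit1, a leucine-rich repeat membrane protein of photoreceptors, was 70.9 to 103 against 56.8 to 74.2 CPM and overlapped (0.44, edgeR adjusted p = 0.0446). Lrit1 lies on chromosome 14 (37054830 to 37064946), near Opn4 (34590618 to 34600142). Whether that nearness has a part in its difference was not tested. Egflam passed whichever pool was left out. Rims2 missed without knockout pool 4, Syp missed when any single pool other than wildtype 3 was left out, and Lrit1 when any other than knockout 5 or wildtype 2 was. Egflam and Rims2 passed without knockout pools 1 and 2.

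The counterparts of these proteins at conventional synapses, 21 genes, gave 1 call, a median of 0.05 and 13 positive values. Slc17a6 (VGLUT2), the transporter of ganglion cells, rose from 62.1 to 64.7 CPM in the wildtype to 67.4 to 78.0 CPM (log2 fold change 0.20, edgeR adjusted p = 0.0464). It missed when any single pool other than knockout 1 or 2 was left out, but passed without both of these (0.25, edgeR adjusted p = 0.0137). Among these genes, Cplx2 averaged 784 ± 20 (SD, n = 5) and 732 ± 9.5 CPM (SD, n = 4), and Cacna1a 63.3 ± 2.8 and 65.1 ± 2.9 CPM. Neither passed (edgeR adjusted p = 0.181 and 0.74).

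On the other side of the synapse, 4 of 17 postsynaptic partners rose, none fell, 13 were positive, and the median was 0.08. Grm6 encodes mGluR6, the glutamate receptor of ON bipolar cells that Elfn1 binds. It was counted 143, 193, 18, 43 and 21 times in the knockout pools and 0, 2, 6 and 0 times in the wildtype pools. All knockout pools were above all wildtype pools (edgeR adjusted p = 0.00787), with pools 1 and 2 well above the rest, and without those 2 it did not pass (edgeR adjusted p = 0.061). Gpr179, the protein that holds the mGluR6 complex, was 9.46 to 12.9 against 7.15 to 9.01 CPM (log2 fold change 0.47, edgeR adjusted p = 0.0494). It missed without knockout pool 1 or 2 or wildtype pool 2, 3 or 4. Grik1, which encodes a kainate receptor subunit found in OFF bipolar cells, was 8.23 to 15.5 against 5.33 to 6.77 CPM (0.91, edgeR adjusted p = 0.0141), and missed without wildtype pool 4. Rgs9bp, known best as the anchor of the RGS9 complex in photoreceptors, was 31.0 to 52.7 against 22.6 to 27.2 CPM (0.65, edgeR adjusted p = 0.00993). Grik1 and Rgs9bp passed without knockout pools 1 and 2.

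**Figure D4:**
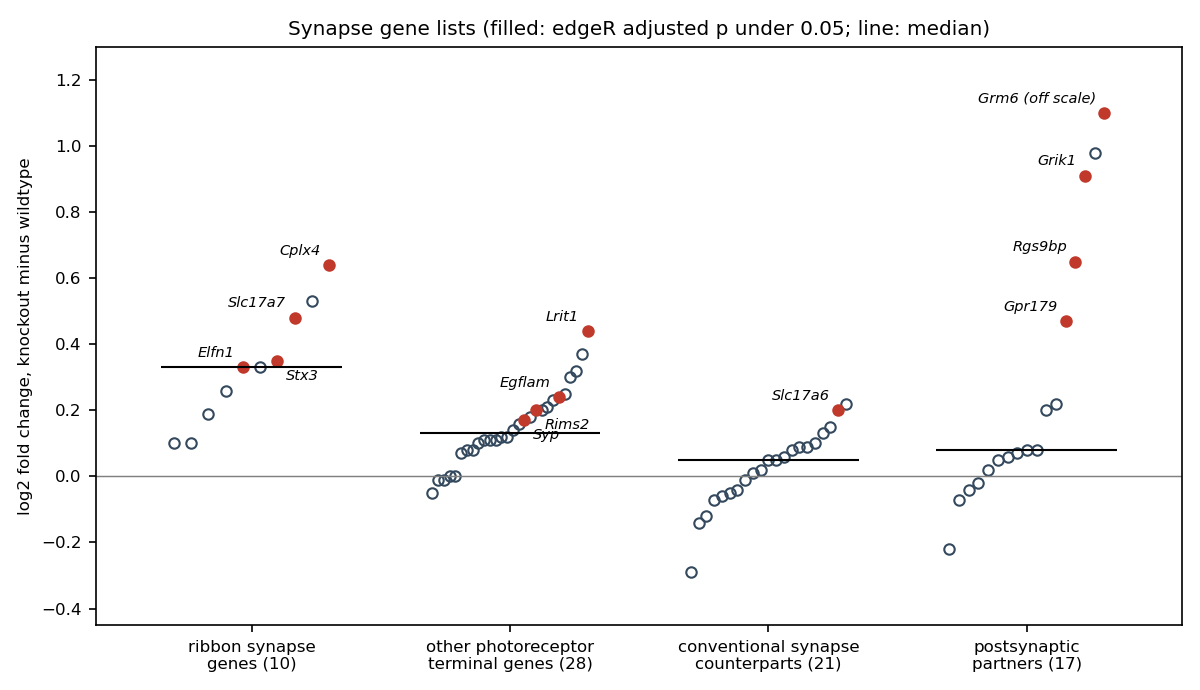
Log2 fold change, knockout minus wildtype, of every gene in the 10 members and in the 3 other synapse lists, sorted within each list; filled points passed at an edgeR adjusted p under 0.05, the line is the median, and Grm6 (5.38) is drawn at the upper edge. The median is 0.33 for the members, 0.13 for other terminal genes, 0.05 for conventional counterparts and 0.08 for postsynaptic partners.

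To set ribbon genes against conventional paralogs within each library, 4 ratios of CPM are given, compared by permuting the genotype labels of the pools exhaustively (exact permutation, two-sided), which cannot go below p = 0.00794. The ratio of Cplx4 to Cplx2 was 0.0308, 0.0332, 0.0262, 0.0216 and 0.0214 in the knockout and 0.018, 0.0185, 0.0181 and 0.0191 in the wildtype. These groups did not overlap, with a log2 difference of 0.51 (exact permutation p = 0.0159, 0.0794 after Benjamini-Hochberg adjustment over the 5 ratios tested). That is the smallest p the test allows, and a single ratio at it cannot pass after this adjustment. The ratio of Slc17a7 to Slc17a6 was 2.51, 2.24, 1.67, 1.93 and 1.43 against 1.49, 1.6, 1.64 and 1.64, with knockout pool 5 below every wildtype pool (log2 difference 0.27, adjusted exact permutation p = 0.258). Cplx3 to Cplx2 differed by 0.08 (0.258) and Cacna1f to Cacna1a by 0.30 (0.317), by the same exact permutation test and adjustment, with overlap in each. None of these 4 ratios passed after adjustment. Without knockout pool 5, Slc17a7 to Slc17a6 (0.38) and Cplx4 to Cplx2 (0.58) passed at an adjusted exact permutation p of 0.0476 each. Without knockout pools 1 and 2, the differences were 0.06 for Slc17a7 to Slc17a6, 0.01 for Cplx3 to Cplx2, 0.32 for Cplx4 to Cplx2 and -0.05 for Cacna1f to Cacna1a. None of these passed (adjusted exact permutation p = 0.286 for Cplx4 to Cplx2 and 0.914 for the others). With so few pools left, this test could not go under 0.05 whatever the values, so the miss decides nothing. The ratio of Cplx4 to Cplx2 still did not overlap between the groups there.

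**Figure D5:**
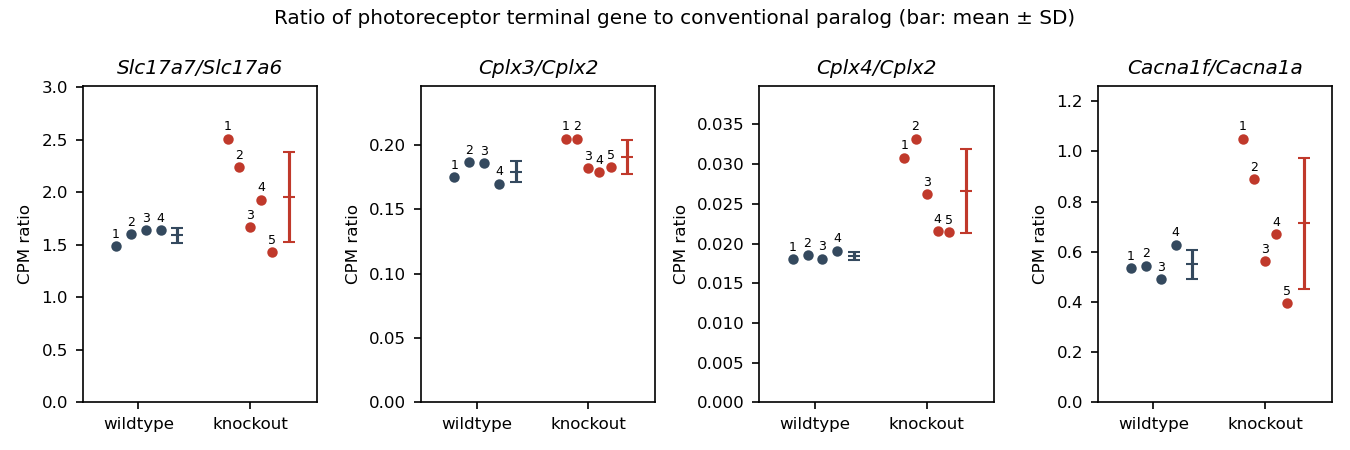
Ratio of CPM of a photoreceptor terminal gene to its conventional paralog in each pool, linear axes from 0, numbers giving the pool and bars the mean ± SD of 5 knockout or 4 wildtype pools. The groups separate in Cplx4/Cplx2 and overlap in the other 3 ratios.

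For each of the 4 members that rose, the genes whose pattern over the 9 pools lay nearest were found among 15744 genes, by the root mean square difference of centred log2 CPM. Slc17a7 was nearest to Prph2 (0.067), Fabp12 (0.070) and Pdc (0.071), where the median gene lay at 0.307. Prph2 is an outer segment protein and Pdc encodes phosducin, both of photoreceptors. Stx3 was nearest to Rd3 and Plch2 (0.051 each) and Galnt4 (0.053), with the median at 0.246. Cplx4 was nearest to Car14 (0.091) and Klf9 (0.116), with the median at 0.387. Elfn1 was nearest to Mtfr1 (0.042), Fam149a (0.048) and Trmt1l (0.049), with the median at 0.222. No p-value belongs to these distances, since the genes were measured in the same 9 libraries.

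Relative to the photoreceptor transcription factors Crx and Nrl in the same library, a comparison chosen after the data had been seen and described without a test, the members differed among themselves. Crx itself measured 756 to 952 CPM in the knockout and 701 to 752 in the wildtype. Nrl measured 806 to 988 against 724 to 764 CPM and rose (log2 fold change 0.29, edgeR adjusted p = 0.0153). The ratio to Crx did not overlap between genotypes for Slc17a7 (log2 difference 0.25), Stx3 (0.14) and Cplx4 (0.40), where 0.446% of 20189 genes with counts in every pool did the same, and 7 of 10 members were positive, against 12.3% of those genes. The ratio to Nrl overlapped for all 10 (0.277% of genes were higher without overlap), and 5 of 10 were positive, against 8.67% of genes. Cplx4 to Nrl was 0.0245, 0.0274, 0.023, 0.0191 and 0.0211 in the knockout pools and 0.0181, 0.0174, 0.0184 and 0.0192 in the wildtype pools, so knockout pool 4 fell within the wildtype range. Ctbp2, Bsn and Cplx3 were lower relative to both factors, as most genes were, and their ranges overlapped. Their log2 differences were -0.11, -0.10 and -0.03 to Crx and -0.19, -0.17 and -0.10 to Nrl. From TPM, Elfn1 differed by 0.25 to Crx and 0.14 to Nrl, against 0.12 and 0.05 from CPM.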

How the data were processed

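Polyadenylated RNA of 9 pools was sequenced by the authors in paired reads of 150 bases. The stated read depth is 42.7 ± 3.9 M, per the labels' design text, and pools were kept with over 500 ng of RNA and a RIN above 8.5. The submitters' processing notes name Trimmomatic 0.39, kallisto 0.46.1, sleuth 0.30.8 and GRCm38. The deposited gene count table holds whole-number counts, and no source used here names their counting program; the totals exceed the stated reads. The deposited TPM signal is one value per transcript with only a gene symbol, whose column sums are close to the usual TPM total without equalling it; 188 of its 118489 rows had digits for a symbol and were left out. The authors' deposited table gives p-values, q-values and effects in natural log units, which were divided by the natural log of 2 and written in log2.

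Counts were fitted in edgeR 4.0.16 (R 4.3.3) with TMM scaling, filterByExpr and the quasi-likelihood test on genotype, adjusted over all tested genes by Benjamini-Hochberg. CPM are counts divided by the TMM-scaled library size in M. TPM, summed per symbol or per transcript, were tested by limma 3.58.1 on log2(TPM + 0.5), keeping rows at 1 TPM or more in at least 4 pools. Ratios were tested by exact permutation in scipy 1.17.1. BLAST 2.17.0 of member transcripts against GENCODE M21 matched 1 member to another gene, Ctbp2 to Fgfr2, which it overlaps on the same strand. In simulated counts of 21150 genes for this comparison, 50.7%, 73.1% and 89.4% of genes changed 1.5-, 2- and 3-fold were recovered, with 4 false calls among 20950. The alternatives were DESeq2 1.42.0, other scalings and filters, TPM, a replicate block and leaving out pools. Genes named are Opn4, the members, the list genes that passed, the genes of the ratios, the 3 nearest genes of each member that rose, and the highest or zero markers; 1 ratio of the 5 tested and 1 nearest gene are not reported here. The members and lists were chosen with earlier results of these data known. Coordinates are those of GENCODE M21 on GRCm38.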

Additional observations from a re-analysis of the deposited data

How the results depend on the processing

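The number of genes higher in the knockout was 284, and was 676 in DESeq2, 152 with no filter on low counts, 95, 99 and 46 from TPM (pseudocount 0.5, 0.1 and no filter), 134 without knockout pools 1 and 2, and 153 to 347 with each pool left out in turn. Genes lower numbered 476, and 826 in DESeq2 and 235, 238 and 148 from the same TPM settings. Members that rose were 4, and 1, 2 and 1 from TPM, and 1 to 4 with each pool left out. The other terminal genes gave 4 calls, and 10 in DESeq2, 2 with no filter, 2, 2 and 1 from TPM, 2 without knockout pools 1 and 2, and 1 to 6 with each pool left out. Conventional counterparts gave 1 call, and 0 with no filter, 0 in each TPM setting and 0 to 1 with each pool left out. Postsynaptic partners gave 4 calls, and 0, 2 and 0 from TPM, 2 without knockout pools 1 and 2, and 2 to 4 with each pool left out. With each pool left out, the log2 ratio differences ranged from 0.17 to 0.38 for Slc17a7 to Slc17a6 and from 0.43 to 0.58 for Cplx4 to Cplx2, and member transcripts called ranged from 0 to 1. Cacna1f to Cacna1a reversed to -0.05 and Cacna1f to -0.08 without knockout pools 1 and 2. Cplx3 passed in DESeq2 (adjusted p = 0.0445). Relative to Nrl, Cplx3 moved to -0.18 from TPM. The cause was not tested in any of these.

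The replicate numbers do not pair the pools: same-numbered deviations correlated at 0.002, -0.031, 0.006 and -0.030, and no wildtype pool correlated best with its own number. With the replicate block, 365 genes were higher and 523 lower, 5 members rose (Cacna2d4 added, log2 fold change 0.32, edgeR adjusted p = 0.0265), other terminal genes gave 8 calls and conventional counterparts 0.

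Cabp4 and Grm6 rest on few counts. With 5 and 4 pools, 50.7% of genes changed 1.5-fold were recovered in counts simulated over all tested genes, and smaller folds were not simulated. A member that did not pass is therefore not shown to be the same in both genotypes.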
